A study of Mus musculus with 6 samples.

Results

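The genes of glycolysis and of the response to low oxygen were compared between IL-11+ and IL-11- cells of the inflamed mouse colon. The members are 40 genes given by symbol, namely the glucose transporters, the glycolytic enzymes with the enzymes and carriers that handle pyruvate and lactate, glycogen synthase, the subunits and regulators of hypoxia-inducible factor (HIF), and HIF target genes. All 40 were among the 20327 gene symbols counted, and 36 of them were among the 9334 symbols tested, that is, those that reached 10 tags in 3 or more libraries. All mice were C57BL/6 mice carrying the *Il11-Egfp* reporter, aged 9 to 15 weeks, and had drunk 1.5% dextran sodium sulfate (DSS), a polymer that injures the colonic epithelium, for 5 days and then water until day 7. On day 7 the colon was digested, and cells negative for Ter119, CD45, CD31 and EpCAM, which removes erythroid, blood, endothelial and epithelial cells, were sorted into EGFP+ (IL-11+, n = 3 libraries) and EGFP- (IL-11-, n = 3 libraries) cells. RNA was measured by 5′Tag-seq, which counts sequence tags from the 5′ end of polyadenylated RNA.

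The reporter is 1 transgenic line in which *Egfp* sits in the second exon of *Il11* on a bacterial artificial chromosome, so that EGFP reports promoter activity of the transgene, and the EGFP- gate holds every cell that passed the negative markers without EGFP. There was no group without DSS and no group exposed to a known oxygen level. Totals ranged from 1022851 tags (IL-11+ replicate 2) to 1169817 tags (IL-11- replicate 3). The sort was visible in *Il11* itself, with 28, 51 and 89 tags in the IL-11- libraries against 1357, 732 and 2658 in the IL-11+ libraries (replicates 1, 2 and 3). Tags from the 5′ end of *Il11* can come from the gene or from the reporter, and these cannot be told apart.

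Glycolysis splits glucose into pyruvate in the cytosol. Its upper steps, from hexokinase to triosephosphate isomerase, spend ATP to make triose phosphates, and its lower steps, from glyceraldehyde-3-phosphate dehydrogenase to pyruvate kinase, return ATP and NADH, after which lactate dehydrogenase can turn pyruvate into lactate for export. HIF is a pair of an oxygen-labile α subunit and a stable β subunit: with oxygen, prolyl hydroxylases mark the α subunit for the von Hippel-Lindau ubiquitin ligase, and without it HIF switches on genes that include many glycolytic enzymes. The colonic mucosa has a steep oxygen gradient even in health.

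Among the members, 3 of the 6 genes of the lower steps of glycolysis, 1 of the 2 lactate carriers, *Hif1a* and *Ddit4* were called higher in IL-11+ cells, and 0 of the 8 tested genes of the upper steps were called. The threshold was a change of over 2-fold with an adjusted p (edgeR's quasi-likelihood test, Benjamini-Hochberg adjustment over the 9334 tested genes) under 0.05. Past it, 6 of the 36 tested members rose (*Gapdh*, *Pgk1*, *Pkm*, *Slc16a1*, *Hif1a* and *Ddit4*) and 1 fell (*Slc2a3*). Over all tested genes, 321 (3.44%) rose and 595 (6.37%) fell. At an adjusted p under 0.05 without a fold threshold, 11 members were higher and 1 was lower, against 638 (6.84%) and 812 (8.7%) of all tested genes. In normalized CPM (tags scaled to library size with TMM), the 3 IL-11+ libraries lay above the 3 IL-11- libraries for 17 of the 36 tested members and below them for 0, against 1353 (14.5%) and 1561 (16.7%) of all tested genes. The median log2 fold change of the 36 tested members was 0.42, and that of all tested genes was −0.01. The RNA of a sorted population was measured as a whole, so that more cells with a transcript and more of it per cell cannot be told apart.

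**Figure D1:**
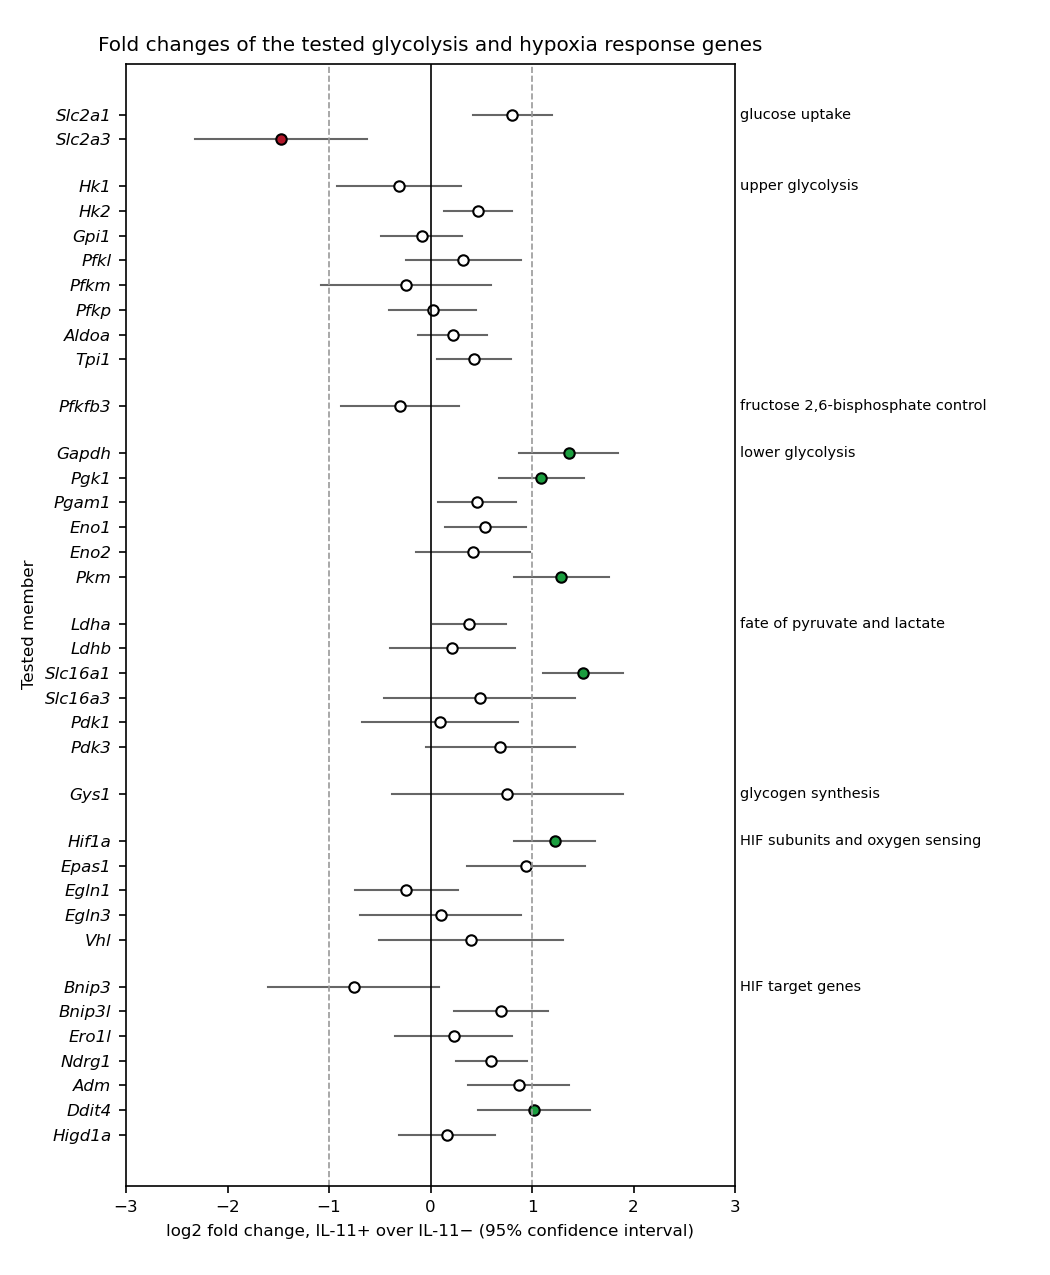
Log2 fold change of IL-11+ over IL-11- libraries for the 36 tested members, grouped by role, with 95% confidence intervals (n = 3 libraries per group). Green and red points passed the threshold upward and downward, open points did not, and the dashed lines mark a 2-fold change: *Gapdh*, *Pgk1* and *Pkm* of the lower steps lie to the right of the line, and all 8 tested genes of the upper steps lie between the lines.

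*Gapdh*, which encodes the enzyme that oxidizes glyceraldehyde 3-phosphate and makes the NADH of glycolysis, had 558, 534 and 539 tags in the IL-11- libraries against 1768, 1060 and 889 in the IL-11+ libraries (replicates 1, 2 and 3). The IL-11- libraries lay close together, all IL-11+ libraries were above them, and replicate 1 was the highest. The log2 fold change was 1.36 (SE 0.232, adjusted p = 0.000387), from 492.8 ± 46.0 to 1266 ± 539 normalized CPM (SD, n = 3). *Pgk1*, for phosphoglycerate kinase, which makes the first ATP of the lower steps, had 136, 183 and 199 tags in the IL-11- libraries against 408, 301 and 268 in the IL-11+ libraries. Again the groups did not overlap and IL-11+ replicate 1 was the highest, and the log2 fold change was 1.09 (SE 0.199, adjusted p = 0.000705). *Pkm*, for the pyruvate kinase of most tissues other than liver and red cells, had 426, 358 and 403 tags in the IL-11- libraries against 1131, 861 and 580 in the IL-11+ libraries. Its IL-11+ libraries spread from 553.1 to 1199 normalized CPM without reaching the IL-11- range, and the log2 fold change was 1.29 (SE 0.224, adjusted p = 0.000458).

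The enzymes between phosphoglycerate kinase and pyruvate kinase were not called. *Pgam1* (phosphoglycerate mutase, 0.46, SE 0.183, adjusted p = 0.105), *Eno1* (the widely expressed enolase, 0.54, SE 0.190, adjusted p = 0.0651) and *Eno2* (the neuronal enolase, 0.42, SE 0.268, adjusted p = 0.346) had positive log2 fold changes, did not overlap between the groups in normalized CPM and did not pass the test. With a replicate block, *Pgam1* (adjusted p = 0.0404) and *Eno1* (adjusted p = 0.0160) passed the adjusted p but not the fold threshold. All 6 genes of the lower steps had positive log2 fold changes under each of the 20 alternative settings tried, while the number called ran from 1 to 3. Summed over these 6 genes, normalized CPM were 1350, 1305 and 1265 in IL-11- and 4018, 2673 and 2000 in IL-11+ replicates 1, 2 and 3, a ratio of means of 2.22. *Gapdh* made the largest contribution to that sum.

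Of the 9 genes of the upper steps, 8 were tested, and 0 were called by edgeR's quasi-likelihood test, by DESeq2 or by edgeR's exact test after iterative TMM, with 2 higher at an unadjusted p under 0.05 (*Hk2* and *Tpi1*). The log2 fold changes ran from −0.31 (*Hk1*, a hexokinase) to 0.47 (*Hk2*, the hexokinase that is inducible in most tissues), and those of *Gpi1* (glucose-6-phosphate isomerase), *Pfkl*, *Pfkm* and *Pfkp* (the phosphofructokinase isoforms), *Aldoa* (aldolase) and *Tpi1* (triosephosphate isomerase) lay between them. As for *Pgam1*, *Eno1* and *Eno2*, the groups did not overlap in normalized CPM for *Hk2* and *Tpi1* (0.43, adjusted p = 0.113), with IL-11+ higher. Of all tested genes, 14.5% were separated in that direction. *Hk2* had 194, 220 and 218 tags in the IL-11- libraries against 265, 261 and 258 in the IL-11+ libraries. This small difference was even across replicates (190.5 ± 14.9 against 264.0 ± 17.4 normalized CPM, SD, n = 3), with an adjusted p of 0.0538, and 0.0163 with a replicate block. For *Aldoa*, with 222, 235 and 259 tags in the IL-11- libraries against 246, 272 and 225 in the IL-11+ libraries, the 95% confidence interval of the log2 fold change, −0.12 to 0.56, excluded a 2-fold change in either direction. The same held for *Gpi1* (−0.49 to 0.31) and *Pfkp* (−0.41 to 0.45), but not for *Pfkm* (−1.08 to 0.60), which had only 8 to 14 tags per library. The summed level of the 9 genes was 796.3, 847.9 and 775.1 normalized CPM in IL-11- and 1066, 970.6 and 819.2 in IL-11+ replicates 1, 2 and 3. These ranges overlapped, while the IL-11+ library was the higher one at each replicate number. The brain-type aldolase *Aldoc* was counted with 2 tags in IL-11- replicate 1 and 0 in the other 5 libraries, which at this depth is under the floor of 3 tags (2.56 to 2.93 CPM). *Pfkfb3* and *Pfkfb4*, bifunctional enzymes that make and break down an activator of phosphofructokinase, were not called: *Pfkfb3* had 69, 93 and 74 tags in the IL-11- libraries against 40, 92 and 40 in the IL-11+ libraries (log2 fold change −0.30, adjusted p = 0.543, and −0.82, adjusted p = 0.0444, without IL-11+ replicate 2), and *Pfkfb4*, with 2 to 10 tags, was not tested.

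The glucose transporters moved apart. *Slc2a1*, for the widely expressed transporter that supplies basal glucose uptake, had 68, 69 and 104 tags in the IL-11- libraries against 135, 128 and 111 in the IL-11+ libraries (replicates 1, 2 and 3). Its normalized CPM did not overlap between the groups (71.8 ± 11.8 against 126.3 ± 18.9, SD, n = 3), and the log2 fold change of 0.81 (SE 0.187, adjusted p = 0.00519) was under the fold threshold. *Slc2a3*, for a high-affinity transporter best known from neurons and blood cells, had 36, 16 and 42 tags in the IL-11- libraries against 5, 15 and 10 in the IL-11+ libraries. The groups overlapped in replicate 2, where both were at 15.1 to 15.2 normalized CPM, although the gene passed the threshold (log2 fold change −1.47, SE 0.403, adjusted p = 0.0162). Its adjusted p was 0.0716 without IL-11- replicate 1, 0.0702 without IL-11- replicate 3 and 0.0788 without IL-11+ replicate 1.

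Of the 6 genes that handle pyruvate and lactate, only *Slc16a1* was called. It encodes a proton-coupled carrier that moves lactate and pyruvate across the plasma membrane. *Slc16a1* had 50, 44 and 53 tags in the IL-11- libraries against 133, 126 and 112 in the IL-11+ libraries. Both groups were narrow (44.2 ± 3.20 and 125.2 ± 17.2 normalized CPM, SD, n = 3) and far apart, and the log2 fold change of 1.50 (SE 0.188, adjusted p = 1.5e-05) was the largest among the tested members. It passed the threshold in each of the 20 alternative settings. *Slc16a3*, for the carrier typical of strongly glycolytic cells, had 6 to 13 tags per library in both groups (log2 fold change 0.48, adjusted p = 0.538). *Ldha*, for the lactate dehydrogenase subunit that favours lactate formation, had 248, 213 and 309 tags in the IL-11- libraries against 327, 253 and 313 in the IL-11+ libraries. In normalized CPM its groups were barely apart (the highest IL-11- library at 253.7 and the lowest IL-11+ library at 256.9), and the log2 fold change of 0.38 (95% confidence interval 0.02 to 0.74, adjusted p = 0.156) did not pass the test and excluded a 2-fold change. *Ldhb*, for the subunit that favours pyruvate, had 20 to 37 tags (log2 fold change 0.22, adjusted p = 0.701). The kinases that shut pyruvate out of the mitochondrial oxidation, *Pdk1* (10 to 17 tags, 0.09, adjusted p = 0.911) and *Pdk3* (10 to 20 tags, 0.69, adjusted p = 0.217), did not pass the test, and neither did *Gys1*, the muscle-type glycogen synthase (2 to 14 tags, 0.75, adjusted p = 0.407).

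**Figure D2:**
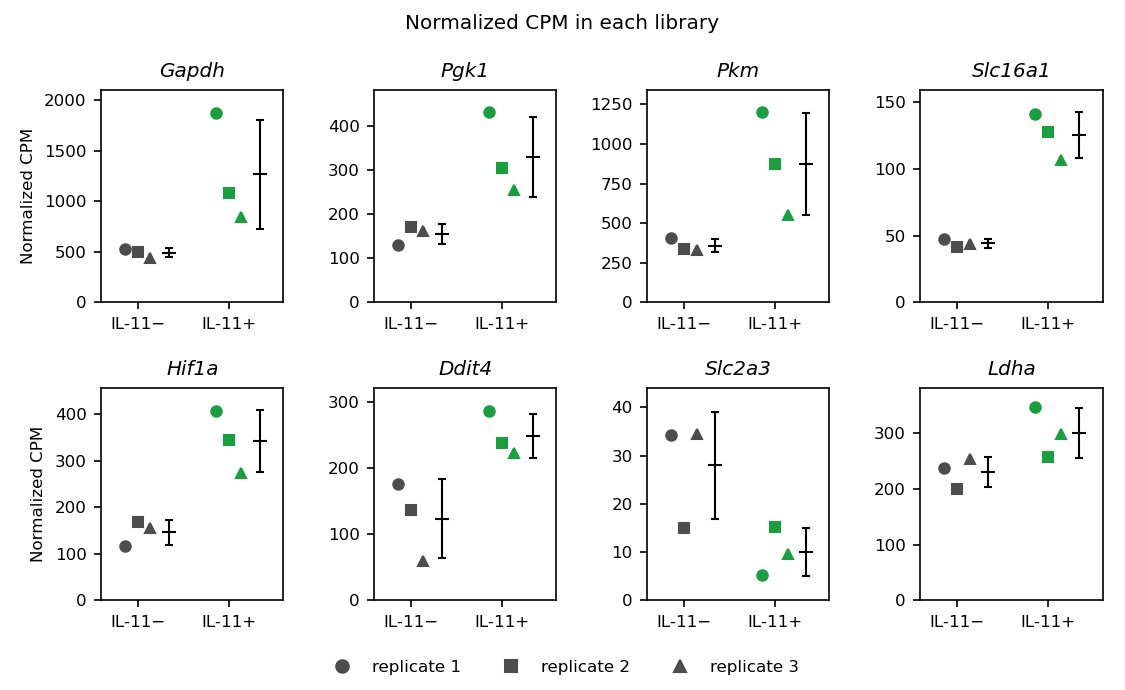
Normalized CPM of the 7 members past the threshold and of *Ldha* in each library; symbols give the replicate number, and the black mark and bar beside each group give its mean and SD (n = 3). In *Gapdh*, *Pgk1*, *Pkm*, *Slc16a1*, *Hif1a* and *Ddit4* every IL-11+ library lies above every IL-11- library, in *Slc2a3* replicate 2 of both groups coincides at 15.1 to 15.2, and the axes start at 0.

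*Hif1a*, the gene of the HIF-1 α subunit, had 122, 178 and 188 tags in the IL-11- libraries against 384, 340 and 287 in the IL-11+ libraries (replicates 1, 2 and 3). No IL-11+ library came near the IL-11- range. The log2 fold change was 1.22 (SE 0.190, adjusted p = 0.000150), from 146.2 ± 26.6 to 342.0 ± 66.7 normalized CPM (SD, n = 3), and it passed the threshold in each of the 20 alternative settings. These are transcript values: the α subunit is mainly controlled through the stability of the protein, which was not measured in these libraries. *Epas1*, for the α subunit of HIF-2, had 172, 183 and 130 tags in the IL-11- libraries against 321, 369 and 143 in the IL-11+ libraries. IL-11+ replicate 3 fell within the IL-11- range while the other 2 IL-11+ libraries were above it, so that the log2 fold change of 0.94 (SE 0.278, adjusted p = 0.0260) rose to 1.28 (adjusted p = 0.000139) without that library, and the adjusted p was over 0.05 without any 1 of the other 5. DESeq2 gave *Epas1* an adjusted p of 0.230, and the replicate block gave 2.70e-05, with the IL-11+ library higher in all 3 pairs. The genes of the oxygen sensors and of the ligase did not pass the test. *Egln1*, the main prolyl hydroxylase, had 40, 54 and 56 tags in the IL-11- libraries against 28, 36 and 50 in the IL-11+ libraries (log2 fold change −0.24, adjusted p = 0.580), *Egln3*, an inducible one, had 11 to 22 tags (0.10, adjusted p = 0.906), and *Vhl* had 7 to 14 tags (0.40, adjusted p = 0.604).

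Among the 9 HIF target genes, 7 were tested, and 1 was called higher. *Ddit4*, for an inhibitor of mTORC1 signalling that many stresses besides hypoxia induce, had 184, 144 and 72 tags in the IL-11- libraries against 270, 234 and 233 in the IL-11+ libraries. The groups did not overlap, but IL-11- replicate 3 was low, and the log2 fold change of 1.02 (SE 0.262, adjusted p = 0.0115) just exceeded the fold threshold. Without IL-11- replicate 3 it was 0.66 (adjusted p = 0.0316), without IL-11+ replicate 1 0.91 (adjusted p = 0.0453), and with scaling by library size only 0.94 (adjusted p = 0.0166).

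Another 3 target genes passed the adjusted p with less than a 2-fold change. *Adm*, for the vasodilator peptide adrenomedullin, had 85, 56 and 107 tags in the IL-11- libraries against 180, 107 and 113 in the IL-11+ libraries (log2 fold change 0.87, SE 0.236, adjusted p = 0.0160). *Ndrg1*, a stress-responsive gene regulated by HIF among others, had 190, 217 and 232 tags in the IL-11- libraries against 305, 301 and 256 in the IL-11+ libraries (0.60, SE 0.167, adjusted p = 0.0190). *Bnip3l*, for a mitophagy receptor, had 135, 80 and 103 tags in the IL-11- libraries against 192, 132 and 136 in the IL-11+ libraries (0.69, SE 0.220, adjusted p = 0.0384). None of the 3 overlapped between the groups in normalized CPM. When each library was left out in turn, the adjusted p stayed under 0.05 in 4 of 6 fits for *Adm*, 3 of 6 for *Bnip3l* and 1 of 6 for *Ndrg1*. For *Bnip3l* it was also over 0.05 by DESeq2 (0.0616) and with scaling by library size only (0.0679).

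*Bnip3*, for the related mitophagy receptor, had the opposite sign. It had 96, 71 and 29 tags in the IL-11- libraries against 58, 24 and 23 in the IL-11+ libraries (replicates 1, 2 and 3), so that each IL-11+ library was below the IL-11- library of the same number while the groups overlapped. The log2 fold change of −0.75 had an SE of 0.401 and an adjusted p of 0.244, and an adjusted p of 0.0181 with a replicate block. Without IL-11+ replicate 1 (−1.36, adjusted p = 0.0398) or without IL-11- replicate 3 (−1.17, adjusted p = 0.0249) it passed the threshold. *Ero1l*, an oxidase of the endoplasmic reticulum (27 to 49 tags, 0.23, adjusted p = 0.651), and *Higd1a*, a mitochondrial survival factor (35 to 60 tags, 0.16, adjusted p = 0.704), did not pass the test. *Ankrd37*, with 8, 6 and 2 tags in the IL-11- libraries against 5, 2 and 1 in the IL-11+ libraries, was too low to be tested. *Car9*, for a carbonic anhydrase widely used as a hypoxia marker, was counted with 1 tag in IL-11+ replicate 2 and 0 in the other 5 libraries, and a difference in it was not detectable at this depth.

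Shares of isoforms within an enzyme or a receptor pair do not depend on the scaling of the libraries, and 12 such shares were compared with an exact two-sided permutation test over the 6 libraries, whose smallest possible p is 0.10. *Slc2a3* made up 34.6%, 18.8% and 28.8% of the *Slc2a1* and *Slc2a3* tags in IL-11- and 3.57%, 10.5% and 8.26% in IL-11+ replicates 1, 2 and 3 (exact p = 0.10). *Hk2* made up 87.4%, 81.5% and 84.8% of the hexokinase tags in IL-11- and 89.2%, 89.1% and 92.8% in IL-11+ libraries, with the same exact p of 0.10. *Slc16a3* went from 13.8%, 22.8% and 10.2% of the tags of the lactate carriers to 8.90%, 9.35% and 6.67% (exact p = 0.10). In these 3 shares the groups did not overlap, and the adjusted p over the 12 shares was 0.40 for each of them. The other 9 shares overlapped between the groups, among them *Bnip3l* in the mitophagy receptor pair, at 58.4%, 53.0% and 78.0% in IL-11- and 76.8%, 84.6% and 85.5% in IL-11+ libraries (exact p = 0.20), and *Epas1* in the *Hif1a* and *Epas1* pair (exact p = 0.50). The test does not pair the libraries. Compared by replicate number, the shares of *Bnip3l*, *Pdk3* and *Pfkfb4* were higher and that of *Ldhb* was lower in the IL-11+ library of all 3 pairs. These directions were not tested. The *Ldhb* share barely differed between IL-11- and IL-11+ in replicates 1 (10.5% against 10.2%) and 2 (10.9% against 10.3%), and *Pfkfb4* had only 2 to 10 tags.

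IL-11+ replicate 1 was the highest IL-11+ library for 27 of the 36 tested members, and for 3276 of all 9334 tested genes (35.1%). For all 6 genes of the lower steps it was the highest. Without it the members called higher fell from 6 to 3 (*Hif1a* at 1.09, *Pkm* at 1.01 and *Slc16a1* at 1.42 on the log2 scale), while *Gapdh* (0.98, adjusted p = 0.00114), *Pgk1* (0.86, adjusted p = 0.00469) and *Ddit4* (0.91) passed the adjusted p but not the fold threshold. *Pgk1* was also under the fold threshold without IL-11- replicate 1 (0.96). In the same libraries *Il11* itself was highest in IL-11+ replicate 3, which was the lowest IL-11+ library for *Gapdh*, *Pgk1*, *Pkm*, *Slc16a1* and *Hif1a*. The commonly used reference genes did not follow: *Actb* changed by −0.32 on the log2 scale (SE 0.179, adjusted p = 0.277) and *Hprt*, with 59, 54 and 80 tags in the IL-11- libraries against 66, 66 and 66 in the IL-11+ libraries, by 0.20 (SE 0.193, adjusted p = 0.553).

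Other genes of these pathways were taken from lists. Of 31 other glycolysis and pyruvate genes, 18 were tested, and 0 rose by edgeR's quasi-likelihood test, by DESeq2 or by edgeR's exact test after iterative TMM, with 1 higher at an unadjusted p under 0.05. By edgeR's quasi-likelihood test 2 fell, as they did by the exact test after iterative TMM, and by DESeq2 only 1 of them, *Slc2a4*. *Slc2a4*, for the insulin-responsive glucose transporter of muscle and fat, had 17, 20 and 20 tags in the IL-11- libraries against 2, 1 and 1 in the IL-11+ libraries (adjusted p = 0.000107). *Pdk2*, another pyruvate dehydrogenase kinase, had 14, 14 and 12 tags in the IL-11- libraries against 4, 4 and 3 in the IL-11+ libraries (adjusted p = 0.0189). Both were low in every IL-11+ library. Of the 17 glycogen and pentose phosphate genes, all of them tested, *G6pdx* rose and *Pygb* fell. *G6pdx*, the entry enzyme of the pentose phosphate pathway, had 12, 16 and 18 tags in the IL-11- libraries against 38, 29 and 26 in the IL-11+ libraries (2.26-fold, adjusted p = 0.0121), and *Pygb*, a glycogen phosphorylase, had 30, 30 and 36 tags in the IL-11- libraries against 10, 18 and 6 in the IL-11+ libraries (−1.32, SE 0.355, adjusted p = 0.0141). *Pygm*, the muscle glycogen phosphorylase, was called lower too with a replicate block (−1.04, adjusted p = 0.0325) and by edgeR's exact test after iterative TMM. The medians of the log2 fold changes were −0.19 and −0.23 in these lists. At the same threshold, 3.44% of all 9334 tested genes rose and 6.37% fell. With so few calls, the counts are not read as a result about either list.

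Of 48 other genes of the HIF pathway and the hypoxia response, 41 were tested, 6 rose and 3 fell, with a median log2 fold change of 0.22. Of all 9334 tested genes, 3.44% rose and 6.37% fell, and the count of 3 that fell is not read as a result about the list. *Angptl4*, for a secreted inhibitor of lipoprotein lipase, had 103, 124 and 74 tags in the IL-11- libraries against 320, 374 and 226 in the IL-11+ libraries (1.76, SE 0.237, adjusted p = 3.14e-05). *Loxl2* (1.13, SE 0.186, adjusted p = 0.000281) and *Lox* (1.05, SE 0.248, adjusted p = 0.00614) encode enzymes that crosslink collagen. *Tmem45a* had 9, 2 and 17 tags in the IL-11- libraries against 53, 44 and 30 in the IL-11+ libraries (2.35, SE 0.418, adjusted p = 0.000545). The remaining genes that rose were the mitochondrial adenylate kinase *Ak4* (2.06, SE 0.498, adjusted p = 0.00644) and *Stc1*, for the hormone stanniocalcin (1.35, SE 0.425, adjusted p = 0.0357). *Lox* and *Stc1* overlapped between the groups, and DESeq2 called 5 of the 6 higher, without *Stc1*.

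The 3 that fell were 2 mitochondrial genes and a secreted factor. *Cox4i2*, a subunit isoform of cytochrome c oxidase, had 20, 19 and 27 tags in the IL-11- libraries against 0, 1 and 2 in the IL-11+ libraries, and *Ndufa4l2*, known for lowering respiratory chain activity, had 21, 36 and 29 tags in the IL-11- libraries against 3, 1 and 1 in the IL-11+ libraries. *Stc2* had 24, 42 and 23 tags in the IL-11- libraries against 10, 12 and 2 in the IL-11+ libraries (−1.72, SE 0.454, adjusted p = 0.0127). All 3 were separated between the groups. *Hmox1*, for heme oxygenase, was called with a replicate block (adjusted p = 1.81e-07, against 0.101 without): its tags were 322, 117 and 536 in IL-11- and 539, 223 and 1003 in IL-11+ replicates 1, 2 and 3, higher in the IL-11+ library of every pair. *Mxi1* was called lower with a replicate block (−1.34, adjusted p = 0.0152, against 0.0752 without) and by edgeR's exact test after iterative TMM.

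The cell types in the 2 gates were compared by marker lists. The 9 fibroblast markers were present in all libraries, summing to 22122, 22107 and 24635 normalized CPM in IL-11- and 42227, 33957 and 30313 in IL-11+ libraries. *Dcn* was the most abundant of them, *Pdgfra* (0.22, SE 0.168, adjusted p = 0.449) and *Col1a1* (0.35, SE 0.192, adjusted p = 0.263) did not pass the test, 2 markers were called higher (*Col3a1* and *Pdpn*), and at the adjusted p alone *Thy1* (0.88, adjusted p = 0.00832) and *Dcn* (0.67, adjusted p = 0.0462) were higher and *Lum* was lower (−0.64, adjusted p = 0.0378). The markers of smooth muscle cells and pericytes, a list that does not separate the muscle of vessels from that of the gut wall, moved the other way: 9 of 11 were called lower, and their sum went from 4487, 4643 and 5200 normalized CPM in IL-11- to 652.9, 629.5 and 730.5 in IL-11+ libraries. *Rgs5* was the most abundant of them. The other 2 markers on the list were not called, *Pdgfrb* at −0.38 (adjusted p = 0.176) and *Kcnj8*, which had the opposite sign, at 0.71 (adjusted p = 0.0394). Among the smooth muscle and pericyte markers *Cnn1* was at 0 in IL-11+ replicate 1 and *Notch3* at 0 in IL-11+ replicate 2. *Myh11* and *Acta2* were present in every library. These markers, among other genes, moved with the lower levels of *Slc2a3*, *Slc2a4*, *Pdk2*, *Pygb*, *Cox4i2* and *Ndufa4l2* and with the higher levels of *Gapdh*, *Pgk1*, *Pkm*, *Slc16a1*, *Hif1a* and *Ddit4*, and their part in these results was not tested.

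**Figure D3:**
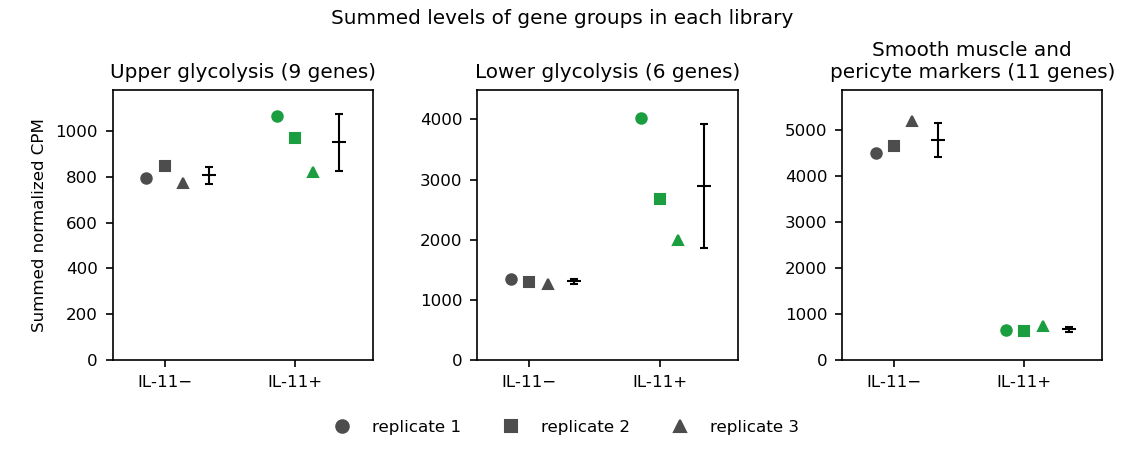
Summed normalized CPM of the 9 genes of upper glycolysis, the 6 genes of lower glycolysis and the 11 markers of smooth muscle cells and pericytes in each library; symbols give the replicate number, and the black mark and bar give the mean and SD (n = 3). The sums of lower glycolysis lie at 1265 to 1350 in IL-11- and 2000 to 4018 in IL-11+ libraries. Those of upper glycolysis overlap but are higher in the IL-11+ library at each replicate number. Those of the smooth muscle and pericyte markers lie at 4487 to 5200 in IL-11- and 629.5 to 730.5 in IL-11+ libraries.

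The genes of the surface markers used to remove cells were near the floor: *Epcam* had 0 to 1, *Pecam1* 0 to 1 and *Ptprc* 0 to 7 tags per library. Of 7 endothelial markers 1 was tested and called lower (*Tek*, the most abundant), with sums of 45.8, 28.3 and 45.2 in IL-11- and 20.1, 14.2 and 12.4 normalized CPM in IL-11+ libraries. *Tek* alone had means of 29.5 and 9.96, out of mean sums of 39.8 and 15.6. The other 6 endothelial markers were too low to be tested. The 8 epithelial markers summed to 2.83 to 22.2 normalized CPM (*Lgr5* the most abundant) and the 9 leukocyte markers to 11.2 to 35.0 (*S100a8* the most abundant), and none of either list was tested. Erythroid markers (8 on the list, *Hbb-bs* the most abundant, none tested) stood at 98.3, 0 and 317.8 normalized CPM in IL-11- and 20.1, 2.03 and 20.0 in IL-11+ libraries. *Pcna*, the most abundant of 7 proliferation markers and the only one tested, was not called (−0.33, adjusted p = 0.207). The part of these cells in the results was not tested.

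Some members share sequence with other annotated genes, which makes their tag counts less certain. Near the 5′ end, in the first 300 nt of the annotated transcripts, 29.5% of the 50-nt windows of *Gapdh* were also found in another annotated gene (161 genes in all), and *Pgam1* shared 66.7%, *Bnip3l* 43.1%, *Pfkm* 34.8%, *Eno1* 34.2%, *Pgk1* 28.8%, *Bnip3* 23.5%, *Gpi1* 13.1%, *Pkm* 10.9%, *Hif1a* 9.22% and *Ldha* 9.07%. Of the 161 genes that share windows with *Gapdh*, 9 were counted under symbols of their own, and the 2 of these 9 that share 5% or more of its windows moved with it: *Gapdh-ps15* had 45, 38 and 47 tags in the IL-11- libraries against 119, 83 and 80 in the IL-11+ libraries, and *Gm12070* had 70, 60 and 66 tags in the IL-11- libraries against 120, 131 and 103 in the IL-11+ libraries. Both were called higher. *Eno1b* had 10 to 24 and *Bnip3l-ps* 3 to 9 tags per library. How tags that match several genes were assigned is not given in the sources used here. *Slc16a1*, *Slc2a1*, *Slc2a3*, *Hk2*, *Epas1*, *Ndrg1*, *Adm* and *Ddit4* shared no such window with another gene. No single gene model was matched to *Aldoa*, so its windows were not compared.

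Promoter sequences (RefSeq, GRCm38.p6) were found for 36 of the 40 members, as 49 windows of the 250 bases before an annotated start; *Slc2a3*, *Epas1*, *Bnip3l* and *Ndrg1* were not matched. The core of the hypoxia response element, which HIF binds, reads ACGTG or GCGTG, and both were searched on both strands. Either was present in 39 of the 49 windows (79.6%) and in 38.6% of all 32851 promoter windows of that length. ACGTG was present in 46.9% of the windows of members and 16.6% of all windows, and GCGTG in 55.1% and 28.2%. The windows of members were also richer in G and C, with a median of 62% against 52.4%, some of them overlap one another within a gene, and several members were selected as HIF targets, so these shares are a description only. The motif is short and common, and the palindrome CACGTG, which also binds MYC and related factors, counts as 2 matches to ACGTG. Of the members, 31 had at least 1 match in a window, and *Eno2*, *Gpi1*, *Gys1*, *Tpi1* and *Vhl* had none.

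The windows of *Gapdh*, *Pgk1*, *Slc16a1* and *Hif1a*, which were higher in IL-11+ cells, are shown beside that of *Ldha*, which was not called, because the motif was found in all of them. *Gapdh* (minus strand, chr6:125165774-125166023) held 2 matches to GCGTG, *Pgk1* (plus strand, chrX:106186850-106187099) 2 to ACGTG, *Slc16a1* (plus strand, chr3:104638414-104638663) 2 to each, *Hif1a* (plus strand, chr12:73907617-73907866) 3 to ACGTG and *Ldha* (plus strand, chr7:46845554-46845803) 5 to ACGTG. None of these windows overlaps an annotated exon on its strand in GENCODE release M21; those of *Gapdh*, *Hif1a* and *Ldha* lie inside the annotated gene, of which other transcripts start further upstream, and those of *Pgk1* and *Slc16a1* lie outside it. A second window of *Ldha* held 1 match, the windows of *Pkm* held 0 and 1 and that of *Ddit4* held 2, and these are not shown. Capitals mark the matches on either strand, 5′ to 3′ on the strand of the gene.
Gapdh: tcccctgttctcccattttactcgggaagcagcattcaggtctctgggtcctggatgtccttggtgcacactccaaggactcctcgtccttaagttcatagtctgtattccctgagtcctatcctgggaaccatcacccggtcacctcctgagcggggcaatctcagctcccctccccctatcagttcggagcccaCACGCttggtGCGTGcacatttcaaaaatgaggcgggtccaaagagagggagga
Pgk1: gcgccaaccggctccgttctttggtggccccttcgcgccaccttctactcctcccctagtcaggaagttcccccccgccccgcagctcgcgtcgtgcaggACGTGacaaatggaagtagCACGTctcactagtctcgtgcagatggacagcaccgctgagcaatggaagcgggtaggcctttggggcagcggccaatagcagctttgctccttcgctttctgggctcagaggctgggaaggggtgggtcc
Slc16a1: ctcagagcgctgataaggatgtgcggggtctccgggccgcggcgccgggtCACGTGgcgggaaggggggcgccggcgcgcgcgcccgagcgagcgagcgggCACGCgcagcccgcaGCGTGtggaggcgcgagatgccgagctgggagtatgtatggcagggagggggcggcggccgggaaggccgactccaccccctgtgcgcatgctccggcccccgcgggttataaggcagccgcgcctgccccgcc
Hif1a: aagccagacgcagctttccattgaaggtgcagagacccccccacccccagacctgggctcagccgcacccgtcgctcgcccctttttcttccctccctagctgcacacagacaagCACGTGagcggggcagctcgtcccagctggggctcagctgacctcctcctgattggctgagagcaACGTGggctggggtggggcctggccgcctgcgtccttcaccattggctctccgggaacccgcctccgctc
Ldha: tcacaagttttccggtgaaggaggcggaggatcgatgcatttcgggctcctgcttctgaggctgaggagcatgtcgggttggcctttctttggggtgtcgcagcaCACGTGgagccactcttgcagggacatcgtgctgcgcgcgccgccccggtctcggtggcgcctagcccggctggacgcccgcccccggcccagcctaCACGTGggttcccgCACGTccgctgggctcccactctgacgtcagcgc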

How the data were processed

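The values are the deposited tag counts, without normalization, for 20327 symbols in each of 6 libraries; upstream, the authors used Cutadapt 1.18 for trimming and Bowtie2 2.2.5 for alignment to RNA of RefSeq (mm10). The treatment of tags that match several genes and the use of molecular identifiers are not stated in the sources. *Rn45s* was the most abundant symbol in every library. Groups and replicate numbers come from the labels. Here, symbols that reached 10 tags in 3 or more libraries were tested with edgeR 4.0.16 (quasi-likelihood test, TMM, R 4.3.3), group as the only term, and Benjamini-Hochberg adjustment over 9334 symbols; called means past 2-fold with an adjusted p under 0.05. SE and 95% confidence intervals come from this fit. Depth was 1022851 to 1169817 tags, where 3 tags equal 2.56 to 2.93 CPM; floors cover counting error only. Libraries correlated within groups at Spearman rho 0.894 to 0.929 over 5063 genes.

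The study used 3 mice, and same-numbered libraries deviated together from their group means (r = 0.231, 0.186 and 0.268 for the 5063 genes averaging 30 tags or more, against a mean of −0.113 for differently numbered ones), so the numbers were treated as pairs in an alternative fit with a replicate block. Other alternatives were RLE scaling, library size only, iterative TMM, DESeq2 1.42.0, edgeR's exact test after iterative TMM, other filters and leaving out each library. Shares were tested by exact permutation. The edgeR fit was also tested on simulated data.

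Members are accounted for by name; by a rule set beforehand, values in every library are given for those called, those past the adjusted p alone, and *Gapdh*, *Hif1a* and *Ldha*, and other values were added after they were seen. Genes of the pathway lists are named where called, at most 6 per direction. Marker genes are named where they are the most abundant of their list or were set beforehand as defining genes (*Epcam*, *Pecam1*, *Ptprc*, *Pdgfra* and *Col1a1*), and *Myh11*, *Acta2*, *Cnn1*, *Notch3*, *Pdgfrb*, *Kcnj8*, *Lum*, *Thy1*, *Col3a1* and *Pdpn* were named after their values were seen, as were *Pygm*, *Hmox1*, *Mxi1*, *Actb* and *Hprt*. The members and lists were chosen with earlier results of these data known. Gene models come from GENCODE release M21 (GRCm38). Listed symbols that were not counted, such as *Hk3*, *Epo* and *Cdh1*, were not analysed here.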

Additional observations from a re-analysis of the deposited data

How the results depend on the processing

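Scaling by RLE, library size or iterative TMM, DESeq2, edgeR's exact test after iterative TMM and the absence of a filter left the direction of every call among the members as it was; the number of members called higher was 4 with library size only (without *Pgk1*, just under 2-fold, and *Ddit4*, at 0.94 on the log2 scale), 5 with a filter of 10 tags in all 6 libraries (*Ddit4* at 0.98) and 6 otherwise. At the adjusted p alone 638 tested genes and 11 members were higher, with 12 members for RLE scaling and without a filter, 10 for library size only and 9 for DESeq2. Under the filter of 10 tags in all 6 libraries, which left *Slc2a3* untested, 256 tested genes and 0 members were called lower, and 0 members were lower at the adjusted p alone; this last count was 2 without a filter.

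With the replicate block the calls of the 36 members did not change; the members lower at the adjusted p alone became 2, with *Bnip3*, and those higher became 14.

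When each library was left out in turn, also with the filter taken from all 6 libraries (an alternative chosen after seeing the data), tested genes called higher ranged from 251 to 329 and lower from 341 to 580. The low values of 341 and 355, without IL-11- replicate 1 and 2, came with a filter on the remaining 5 libraries, and were 483 and 508 with the filter on all 6. Members called higher ranged from 3 to 8, called lower from 0 to 1, higher at the adjusted p alone from 7 to 13 and lower from 0 to 2, and the median log2 fold change from 0.33 to 0.54. Without IL-11+ replicate 1, 3 were called higher. Over all alternatives, 676 of the members' fold changes kept their side of the threshold, 19 lost the call, 11 gained it and 0 called ones changed sign.

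With 3 libraries a group and about 10 tags for the least abundant tested members, a 2-fold change could be missed: the interval of *Gys1* ran from −0.38 to 1.89. Protein, metabolites and oxygen were not measured in these libraries.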
